A study of Homo sapiens with 6 samples.

Results

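The G1 control genes described here are the D-type cyclins CCND1, CCND2 and CCND3, their kinases CDK4 and CDK6, the E-type cyclins CCNE1 and CCNE2, and the pocket proteins RB1, RBL1 and RBL2. They were chosen by name, because gankyrin, the product of PSMD10, binds CDK4 and the retinoblastoma protein, and they make up 10 of the 19775 genes that have a probe set of their own on the array. This choice, and that of the gene lists below, was made with earlier results of these data known. A probe set is a group of short oligonucleotides that together give 1 signal for the RNA they match. The 10 genes are read by 28 single-gene probe sets, and every one was examined. RNA was taken from SW480, a long-established line of human colon carcinoma cells, 4 days after infection with an shRNA construct. Of the 6 arrays, 3 came from cells with a non-targeting control shRNA and 3 from cells with an shRNA against gankyrin. The labels do not say whether replicates were separate cultures, nor how many hairpins were used, so the spread behind each p-value may be technical.

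In G1, D-type cyclins bind CDK4 or CDK6 and start to phosphorylate the pocket proteins. Pocket proteins hold E2F transcription factors in check, RB1 mainly the activating ones and RBL1 (p107) and RBL2 (p130) mainly E2F4 and E2F5. Phosphorylation frees E2F, which drives genes of DNA replication and of cyclin E, and cyclin E with CDK2 phosphorylates the pocket proteins further. In colon epithelium CCND1 is known as a target of Wnt and of growth factor signalling. Gankyrin competes with the INK4 inhibitors for CDK4 and binds RB1 through a motif that viral proteins share. Binding and phosphorylation are events between proteins, whereas the arrays read RNA.

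CCND1 was the member with the largest difference between the groups. It fell 2.13-fold on its brighter probe set after gankyrin knockdown and fell on its second probe set too. CDK6 fell 1.23-fold and CCNE1 fell 1.36-fold on their brightest probe sets, while CDK4, RB1 and RBL2 lay within 0.06 of their control means on the log2 scale. CCND2 was at the low end of the scale on all of its probe sets. Of the 21 member probe sets past the filter on low values (mean over the 6 arrays of at least 3.6 on the log2 scale), 4 fell and 0 rose at an adjusted p under 0.05 in limma, where 6.53% of all 32773 probe sets tested fell, 4.05% rose and 10.6% did either. By the brightest probe set of each gene, 3 of the 9 member genes tested fell and 0 rose, against 8.49% and 5.30% of 14199 genes (13.8% in either direction). The median log2 fold change was 0.06 over the 21 member probe sets and -0.09 over the 9 brightest ones, beside 0.00 over all probe sets and -0.02 over all genes. Control and knockdown values did not overlap for 7 of the 21 member probe sets, beside 35.5% of all probe sets tested.

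**Figure D1:**
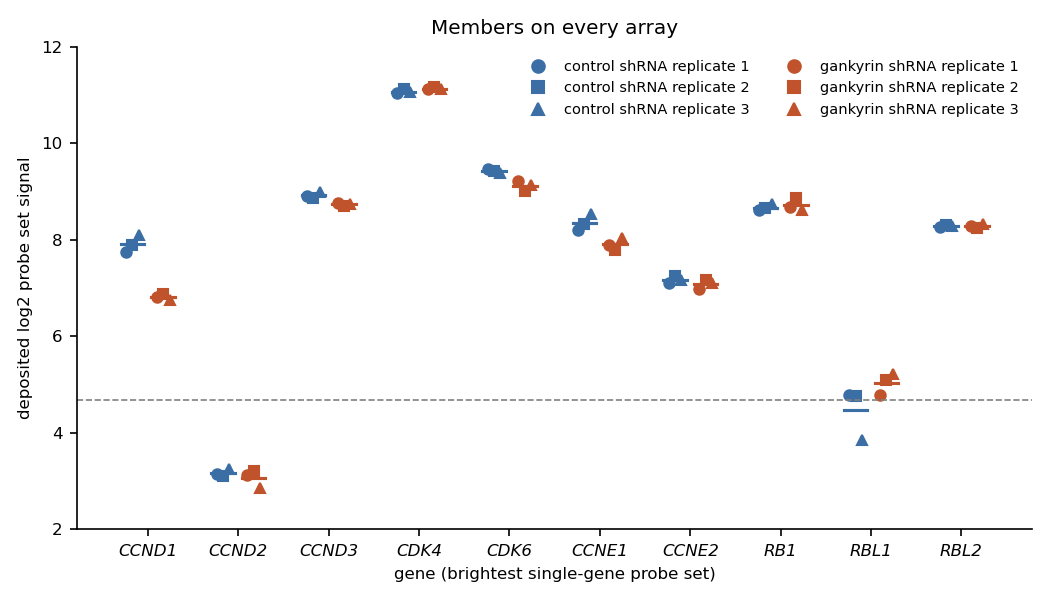
Deposited log2 signal of the brightest probe set of each member gene on every array, with control shRNA in blue, gankyrin shRNA in orange, a marker shape for each replicate number and a bar at each group mean. The dashed line at 4.68 is the 95th percentile of the means of 49 probe sets for tissue-restricted genes. CCND1 separates most, from 7.91 to 6.82, CCND2 lies below the line, and RBL1 lies near it with control replicate 3 lowest.

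The knockdown itself was seen on every array. PSMD10 was at 10.19, 10.23 and 10.15 in control replicates 1 to 3 and at 6.58, 6.47 and 6.30 in gankyrin replicates 1 to 3 on its brighter probe set. NFIL3, named as target in a sentence of the series design text, had a control mean of 9.33 ± 0.13 and a knockdown mean of 9.07 ± 0.05 (SD, n = 3 each; limma, adjusted p = 0.0701, but 0.0281 with the brightest probe set of each gene alone in the fit). Of the colon epithelial markers 10 of 10 were past the filter, with a median signal of 9.20 and a highest mean of 13.02 for KRT18. The lowest mean of that list was 3.71, under the low-end value of 4.68, so not every marker was shown to be present. Their summed log2 signal was 87.47 to 87.75 in control and 87.04 to 87.56 in knockdown arrays. Of these 10 markers 3 were called in limma, beside 13.8% of all genes: KRT19 and CDH1 fell, by 0.46 and 0.64, and VIL1 rose by 0.82. Markers of fibroblasts, leukocytes and endothelium had median signals of 4.37, 4.26 and 3.33, although COL1A1, ITGAM and PECAM1, the highest of each list, had means of 7.12, 5.72 and 5.08, above the low-end value of 4.68. Summed log2 signals were higher in knockdown arrays without overlap for 7 fibroblast markers (28.80 to 28.90 in control, 29.21 to 29.65 in knockdown) and for 6 leukocyte markers (24.20 to 24.82, 25.00 to 25.66), and they overlapped for 5 endothelial markers (17.33 to 18.02, 17.83 to 18.80). Of the 10 probe sets past the filter in these lists 0 were called in limma, and their part in the member results was not tested. The sums for 42 tissue-restricted genes, which set the low-end value, overlapped but were shifted the same way. They were 140.43 to 143.02 in control and 141.94 to 144.69 in knockdown arrays. In bulk RNA, fewer cells of a kind and less RNA per cell cannot be told apart.

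Control replicate 3 stood apart from the other 5 arrays, and this bears on the members. On control probe sets that read the 3′ and the 5′ part of the same transcript, the 3′ minus 5′ difference for GAPDH was 0.56 in control replicate 3 and between -0.11 and 0.00 on the others. For ACTB it was 1.82 in control replicate 3 and between 0.43 and 0.53 elsewhere. This difference is a usual measure of RNA integrity and labelling. On 1860 of the 32773 probe sets, or 5.68%, control replicate 3 was the lowest array by more than 0.5, and no other array was lowest in that way on more than 33. Among the members this held for 6 of the 21 probe sets, at least 1 each for CDK6, CCNE2, RB1, RBL1 and RBL2. Each member result on a single probe set that rests on this array is therefore given with and without it. Averages over a gene's probe sets were run only with all 6 arrays and so include it. Without control replicate 3, 5 member probe sets fell and 0 rose, while 21.7% of all probe sets were called. This share was 2.18%, 2.37% and 2.22% without knockdown replicate 1, 2 and 3, and 10.6% with all 6 arrays. A call lost without a knockdown replicate was thus common over all probe sets. The control probe sets for 18S ribosomal RNA separated the groups instead: one was at 6.28, 6.02 and 6.17 in control and 7.48, 7.30 and 7.55 in knockdown arrays, and the other two differed by 0.82 and 0.79 in the same direction, also without overlap. Whether RNA integrity or ribosomal RNA had a part in these values was not tested.

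**Figure D2:**
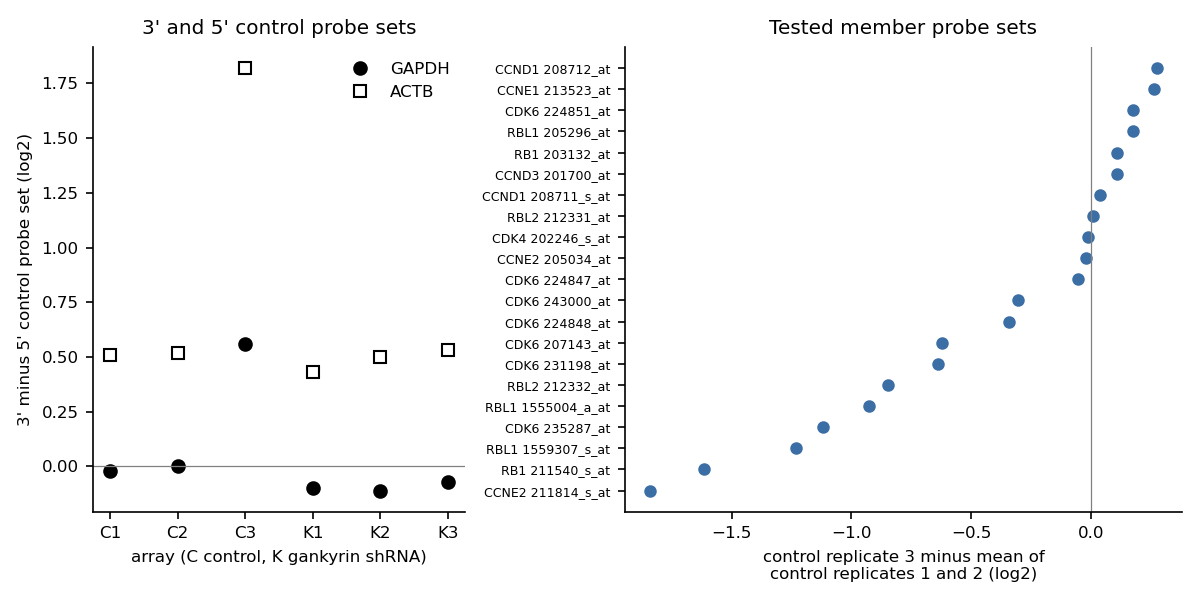
Left, the difference between the 3′ and 5′ control probe sets of GAPDH and ACTB on each array, on the log2 scale. Right, for the 21 tested member probe sets, control replicate 3 minus the mean of control replicates 1 and 2, on the log2 scale. Control replicate 3 is highest on the left for both genes, and on the right it runs from -1.84 for a CCNE2 probe set to 0.28 for CCND1.

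CCND1 encodes cyclin D1, the D-type cyclin of most epithelia. On probe set 208712_at it was at 7.74, 7.89 and 8.09 in control replicates 1 to 3 and at 6.82, 6.88 and 6.75 in gankyrin replicates 1 to 3. Every knockdown value lay below every control value, by 0.86 at the closest. The log2 fold change was -1.09 ± 0.10 (SE, n = 3 per group; 95% interval -1.33 to -0.85; limma, adjusted p = 0.00206). On 208711_s_at the control values were 7.38, 7.40 and 7.43 and the knockdown values 6.95, 6.78 and 6.72, again with no overlap. There the log2 fold change was -0.59 ± 0.09 (limma, adjusted p = 0.00896). By exact permutation of the array labels, two-sided, p was 0.1 for both probe sets, and 3 arrays a group cannot give less. The brighter probe set stayed past the threshold in all 16 alternatives run, with log2 fold changes of -1.17 to -0.84. The second probe set missed it without knockdown replicate 2 (limma, adjusted p = 0.0554) or 3 (0.0530). Without control replicate 3 the values were -0.998 and -0.57.

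CCND3, the D-type cyclin common in blood cells but present in many tissues, was read by a bright probe set, 201700_at. It stood at 8.91, 8.87 and 9.00 in control and 8.76, 8.71 and 8.75 in knockdown arrays. The groups did not overlap, but the difference of -0.19 ± 0.06 (95% interval -0.33 to -0.05) did not pass (limma, adjusted p = 0.0934, and 0.0546 to 0.266 over the alternatives). Its other probe set, 1562028_at, was below the filter at 3.23 and 3.26. CCND2, the third D-type cyclin, had 4 probe sets and none past the filter. Their values ran from 2.11 to 3.24 in control and from 2.15 to 3.21 in knockdown arrays, all under the low-end value of 4.68. The largest CCND2 difference was 0.25, on 200951_s_at, from 2.73 to 2.98. At that level the arrays give no measure of a CCND2 change.

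CDK4 and CDK6 are the catalytic partners of the D-type cyclins, and CDK4 is the one that gankyrin binds. CDK4 was read by 1 probe set, at 11.04, 11.12 and 11.07 in control and 11.13, 11.16 and 11.12 in knockdown arrays. These groups overlapped, and the difference of 0.06 ± 0.04 (95% interval -0.03 to 0.15) did not pass (limma, adjusted p = 0.354).

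CDK6 had 7 probe sets, all past the filter, and they differed in direction. The brightest, 224847_at, was at 9.47, 9.42 and 9.39 in control and 9.22, 9.02 and 9.14 in knockdown arrays. All knockdown values lay below all control values, and CDK6 fell there by 0.30 ± 0.07 on the log2 scale (limma, adjusted p = 0.0324). The next brightest, 224851_at and 224848_at, differed by -0.17 and -0.20, with overlapping groups and no call. The other 4 probe sets, with control means of 4.05 to 6.56, differed by 0.08 to 0.41 in the other direction without passing. On those 4, control replicate 3 differed from the mean of the other controls by -1.12 to -0.31. Without it the groups differed by -0.06 to 0.21, and 224848_at fell by 0.32 (limma, adjusted p = 0.00589). The call on 224847_at was lost without control replicate 1 (0.0845) or 2 (0.0766) and without knockdown replicate 1 (0.0650), 2 (0.119) or 3 (0.115). The mean of all 7 probe sets was at 0.05 (limma, adjusted p = 0.796) with control replicate 3 included, and was not run without it. A CDK6 difference of -0.32 remained on the brightest probe set without control replicate 3 (limma, adjusted p = 0.00259).

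The E-type cyclins act after the D-type ones, with CDK2. CCNE1 on 213523_at was at 8.20, 8.33 and 8.53 in control and 7.90, 7.79 and 8.04 in knockdown arrays. The highest knockdown value lay 0.16 below the lowest control value. CCNE1 fell by 0.44 ± 0.11 on the log2 scale (limma, adjusted p = 0.0410), and by 0.36 without control replicate 3 (limma, adjusted p = 0.00575). That call was lost without control replicate 2 (0.0843) and without knockdown replicate 1 (0.137), 2 (0.152) or 3 (0.0865). The other CCNE1 probe set, 242105_at, was below the filter, at 3.06 and 3.30.

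CCNE2 was read by a pair of probe sets that behaved unlike each other on 1 array. On 205034_at it was at 7.11, 7.25 and 7.16 in control and 6.97, 7.16 and 7.11 in knockdown arrays, a difference of -0.09 ± 0.09 with overlapping groups (limma, adjusted p = 0.512). On 211814_s_at the control values were 6.22, 6.52 and 4.53 and the knockdown values 6.40, 6.64 and 6.33. Control replicate 3 thus differed from the mean of the other controls by -1.84 on this probe set and by -0.02 on the first. The difference was 0.70 ± 0.47 with that array and 0.09 ± 0.11 without it (limma, adjusted p = 0.367 and 0.655).

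The pocket proteins showed the same contrast between probe sets. RB1, the retinoblastoma gene, was at 8.61, 8.65 and 8.74 in control and 8.69, 8.87 and 8.61 in knockdown arrays on 203132_at. The difference was 0.06 ± 0.08 (95% interval -0.14 to 0.25; limma, adjusted p = 0.693). On 211540_s_at RB1 was at 6.16, 6.37 and 4.65 in control and 6.54, 6.44 and 6.41 in knockdown arrays. All 3 knockdown values were above the controls there, yet the difference of 0.74 ± 0.41 did not pass (limma, adjusted p = 0.285) and was 0.20 without control replicate 3. RBL2 was at 8.26, 8.30 and 8.29 in control and 8.29, 8.25 and 8.33 in knockdown arrays on 212331_at, a difference of 0.01 ± 0.06 (limma, adjusted p = 0.957) that turned to -0.00 with each array centred on its median. On 212332_at RBL2 was at 6.61, 6.66 and 5.79 in control and 6.79, 6.76 and 6.80 in knockdown arrays. That difference of 0.43 ± 0.22 did not pass either (limma, adjusted p = 0.251) and was 0.15 without control replicate 3.

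RBL1, the pocket protein that is itself an E2F target gene, was near or below the low-end value of 4.68 on its probe sets, with no group mean above 5.03. On 1555004_a_at it was at 4.79, 4.76 and 3.85 in control and 4.78, 5.09 and 5.21 in knockdown arrays, a difference of 0.56 ± 0.26 (limma, adjusted p = 0.208). On 205296_at the difference had the other sign, -0.19 ± 0.13, from 4.69 ± 0.12 to 4.50 ± 0.22 (SD, n = 3 each; limma, adjusted p = 0.378). The third probe set, 1559307_s_at, was at 3.88, 4.48 and 2.95 in control and 4.22, 4.73 and 3.98 in knockdown arrays. Without control replicate 3 the differences of the 3 probe sets were 0.25, -0.14 and 0.13, and none passed. The fourth, 1555003_at, was below the filter, at 2.40 in both groups.

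**Figure D3:**
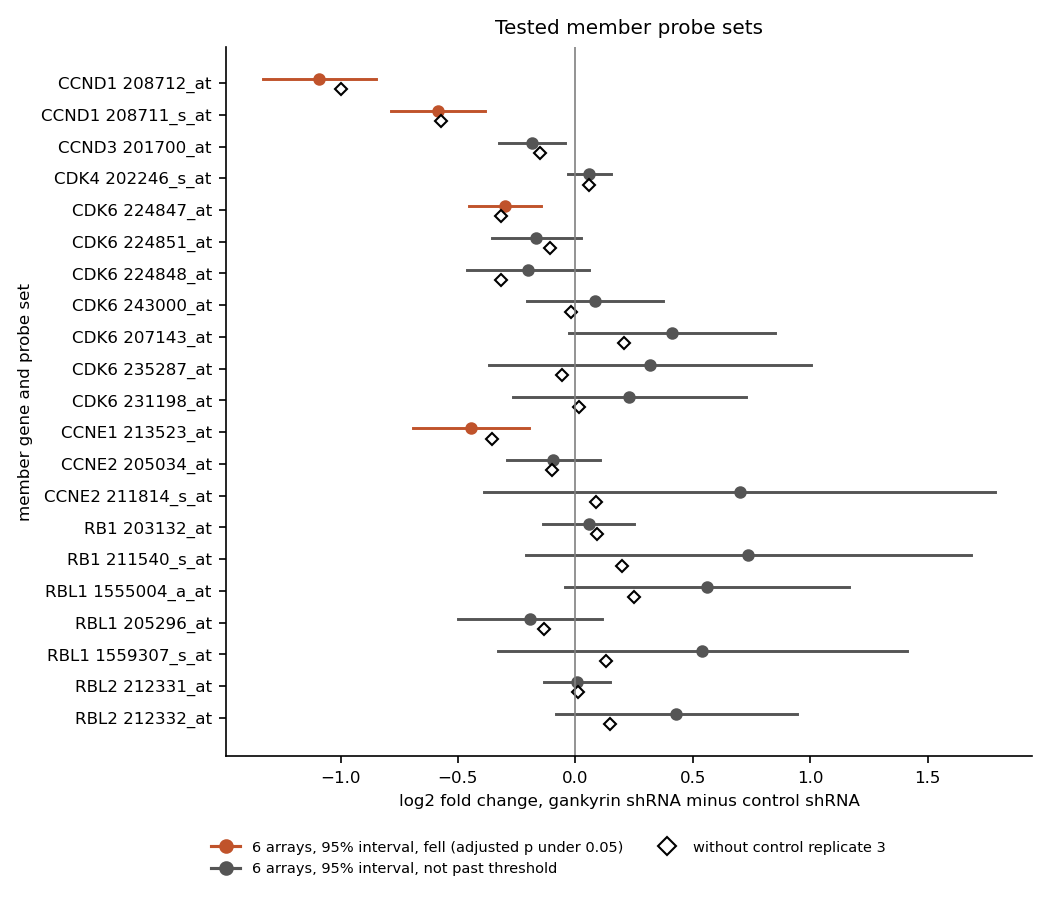
Log2 fold change of the 21 tested member probe sets, gankyrin shRNA minus control shRNA, with the 95% interval from limma over 6 arrays (circles and lines, orange where the probe set fell at an adjusted p under 0.05). Open diamonds give the value without control replicate 3, which is nearer to 0 than the circle for RB1 211540_s_at (0.74 against 0.20) and CCNE2 211814_s_at (0.70 against 0.09) but not for CDK6 224847_at (-0.30 against -0.32).

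The region before the transcription start was looked at for members that fell and members that did not, since E2F and MYC family factors bind known short words there. The table of RefSeq starts used here (GRCh38.p14) held an entry for 7 of the 10 members. It had none for CCND1, CCND2 and CCNE2, which is a limit of that table and not a statement about RefSeq. The words TTTCCCGC, TTTCGCGC, TTTGCCGC and TTTGGCGC for E2F and CACGTG for the E-box were searched on both strands in the 250 bases before each start, and occurred in 2.79% and 6.34% of the 35116 starts of the table. CCNE1, which fell, is shown with RBL1 and CDK4, which did not pass, each 5′ to 3′ on its own strand with matches in capitals. They are chr19:29811741-29811990 on the plus strand, chr20:37095998-37096247 on the minus strand and chr12:57752311-57752560 on the minus strand.
CCNE1: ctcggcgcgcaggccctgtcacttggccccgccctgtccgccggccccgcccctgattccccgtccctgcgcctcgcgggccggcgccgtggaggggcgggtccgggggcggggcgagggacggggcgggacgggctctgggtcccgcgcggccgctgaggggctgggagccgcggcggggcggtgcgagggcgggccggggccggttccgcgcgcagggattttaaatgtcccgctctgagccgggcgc
RBL1: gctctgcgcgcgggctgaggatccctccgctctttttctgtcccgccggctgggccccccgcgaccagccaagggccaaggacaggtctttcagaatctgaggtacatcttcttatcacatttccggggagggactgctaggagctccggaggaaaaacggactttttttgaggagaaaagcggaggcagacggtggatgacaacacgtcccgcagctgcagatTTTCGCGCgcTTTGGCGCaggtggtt
CDK4: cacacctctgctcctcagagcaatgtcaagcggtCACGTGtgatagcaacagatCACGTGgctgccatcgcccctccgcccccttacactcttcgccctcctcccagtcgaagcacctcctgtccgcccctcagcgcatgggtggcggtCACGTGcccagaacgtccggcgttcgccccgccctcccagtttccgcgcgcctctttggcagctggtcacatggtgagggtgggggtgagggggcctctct
RBL1 has an E2F word that begins 26 bases and another that begins 16 bases before its start, and CDK4 has E-boxes that begin 216, 196 and 101 bases before. The CCNE1 window holds none of these exact words, nor do those of CCND3, CDK6 and RBL2. CCND3 has 3 starts in the table used and CDK6 and RBL2 have 2 each, and only the most upstream of each was searched. That of CCND3 lies 1347 bases from the 5′ end of the gene. The RB1 entry lies 172699 bases inside the gene from its first start and was not used. A match is a description of the letters and not evidence of binding. Only these exact words were searched, so a window without a match may still hold variant sites.

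The genes whose 6 values followed those of CCND1 most closely were found among 14198 other genes by Pearson correlation over the 6 arrays. They were IGF2R, MAN1A1, IRS2, ERLEC1 and BTBD3, with r of 0.998 to 0.9995. IGF2R is the receptor that carries lysosomal enzymes and IGF2, MAN1A1 trims N-glycans, and IRS2 is an adaptor of the insulin receptor. IRS2 was at 6.77, 6.97 and 7.22 in control and 5.68, 5.85 and 5.63 in knockdown arrays. For CCND1 and each of these 5 genes control replicate 3 was the highest of the controls, so the likeness includes that array's deviation as well as the difference between groups.

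Other genes of the G1 pathway were taken from lists of standard members, each gene by its brightest probe set. Among 6 tested CDK inhibitors 2 fell and 0 rose, beside 8.49% and 5.30% of all genes, with a median log2 fold change of -0.13. CDKN1C (p57), an inhibitor of CDK2 complexes, fell 2.45-fold, from 6.10, 6.21 and 6.94 to 5.24, 4.83 and 5.30 (limma, adjusted p = 0.0173; -1.03 on the log2 scale without control replicate 3). CDKN2B (p15), an INK4 inhibitor of CDK4 and CDK6, fell by 0.61 ± 0.11 (limma, adjusted p = 0.0182), with a difference of -0.31 with its probe sets averaged, which did not pass; the replicate block lost the call too (0.0534). CDKN2A, whose product p16 competes with gankyrin for CDK4, had means of 9.15 ± 0.02 and 9.30 ± 0.03 (SD, control and knockdown, n = 3 each; limma, adjusted p = 0.0952). It rose by 0.17 without control replicate 3 (limma, adjusted p = 0.0293), which made 2 falls and 1 rise in this list. Without knockdown replicate 1, 2 or 3 the list had 0 calls in limma each time.

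Of 10 E2F and DP factors 1 rose, beside 5.30% of all genes. This was the E2F partner TFDP2, by 0.46 ± 0.09 (limma, adjusted p = 0.0193). The call was lost without control replicate 1 and without each knockdown replicate (limma, adjusted p = 0.0514 to 0.0943), and on the brightest TFDP2 probe set not ending in _s_at or _x_at the difference was -0.18; with probe sets averaged it was 0.02. E2F7 and E2F8, the atypical repressors, were at 0.26 ± 0.09 and 0.19 ± 0.09 without passing, and both rose without control replicate 3, by 0.31 and 0.25 (limma, adjusted p = 0.0124 and 0.0349). The list of E2F target genes of the G1/S transition leaves out the members CCNE1, which fell, CCNE2 and RBL1. Of its 26 tested genes 8 rose and 0 fell, with a median of 0.23, beside the 5.30% of all genes that rose. Without control replicate 3 there were 13 rises and 0 falls, and without control replicate 1 or with the replicate block there were 5. Without knockdown replicate 1, 2 or 3 there were 2. Rises over all 32773 probe sets moved the same way, from 1326 in the main fit to 3187 without control replicate 3. They numbered 690 without control replicate 1 and 830 with the replicate block. Without knockdown replicate 1, 2 and 3 they numbered 277, 274 and 296. The drop to 2 in this list thus came with a drop over all probe sets. CDC45, part of the replicative helicase, rose 2.05-fold from 8.65, 8.73 and 8.45 to 9.66, 9.60 and 9.68 (limma, adjusted p = 0.000992). GINS2, of the same helicase, rose by 0.54, the chromatin assembly factor subunit CHAF1B by 0.47 and the ribonucleotide reductase subunit RRM2 by 0.34. The CHAF1B and RRM2 calls were lost without knockdown replicate 1, 2 or 3. The GINS2 call was lost on a probe set not ending in _s_at (0.22; limma, adjusted p = 0.129).

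**Figure D4:**
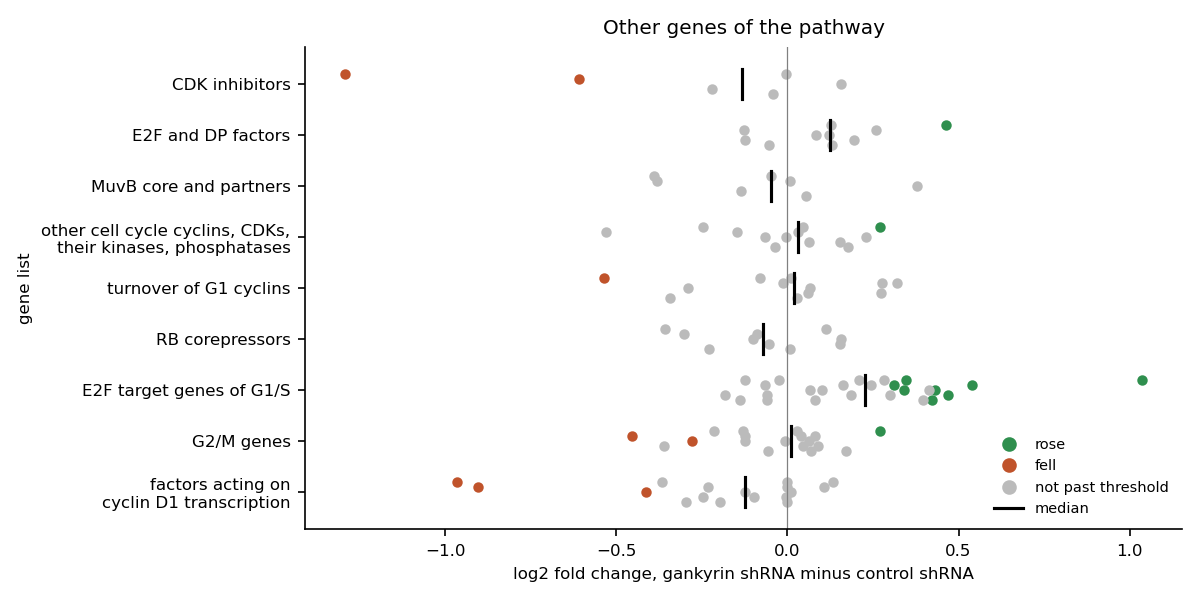
Log2 fold change, gankyrin shRNA minus control shRNA, of every tested gene in 9 lists of the G1 pathway and the cell cycle, by the brightest probe set of each gene. Green points rose, orange points fell and grey points did not pass, with a black bar at each median. E2F target genes have 8 green points and a median of 0.23, and the factors acting on cyclin D1 transcription have 3 orange points.

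Among 12 genes for turnover of G1 cyclins 1 fell, beside 8.49% of all genes. This was FBXW7, the F-box protein that marks cyclin E for degradation, by 0.54 ± 0.11 (limma, adjusted p = 0.0258). Its call was lost without knockdown replicate 1, 2 or 3 and with its probe sets averaged, at -0.30 (limma, adjusted p = 0.0507). SKP2, the F-box protein that marks p27, was at 0.32 ± 0.10 without passing and rose by 0.42 without control replicate 3, when the list had 2 rises and 1 fall. With all 6 arrays SKP2 passed with the brightest probe set of each gene alone in the fit (limma, adjusted p = 0.0328) and with _s_at and _x_at probe sets avoided (0.0367), and was at 0.77 with its probe sets averaged (0.0744). In each of the first 2 of these settings the turnover list had 1 rise and 2 falls. AMBRA1, of the same list, was at -0.29 ± 0.09 in the main fit without passing (limma, adjusted p = 0.0854). Of 13 other cell cycle cyclins, CDKs, their kinases and phosphatases 1 rose, beside 5.30% of all genes. This was the mitotic cyclin CCNB2, by 0.27 ± 0.05 (limma, adjusted p = 0.0168). Its call was lost without knockdown replicate 1, 2 or 3, without an intensity trend (0.0574) and with its probe sets averaged, at 0.18 (limma, adjusted p = 0.119). CDC25B, also of that list, was at -0.53 ± 0.15 with no overlap of the groups, without passing (limma, adjusted p = 0.06455). CDK2, the kinase of cyclin E, was at 8.83 ± 0.09 and 8.98 ± 0.08 (SD, n = 3 each; limma, adjusted p = 0.214), a difference of 0.15 that was 0.47 with its probe sets averaged, without passing. That list had 2 rises and 1 fall without control replicate 3. Of 18 G2/M genes 1 rose, again CCNB2, and 2 fell, UBE2C by 0.45 and CDC20 by 0.28, both of the anaphase-promoting system. Over all genes 5.30% rose and 8.49% fell, so these counts lie near those shares. The UBE2C and CDC20 calls were lost without control replicate 2 and with the replicate block, CDC20 also with each array centred (limma, adjusted p = 0.0730), without a filter (0.0632) or without a trend (0.0892), and without knockdown replicate 1, 2 or 3 this list had 0 calls. None of 7 MuvB core and partner genes and none of 10 RB corepressors passed in limma with the settings used throughout. Over all genes 13.8% passed in either direction. At an unadjusted p under 0.05 in limma there were 2 of the former and 4 of the latter. The share of all genes at that p was not counted. With the brightest probe set of each gene alone in the limma fit, 2 of each list fell. In that fit 22.5% of all genes were called, and 36.2% of those calls were rises. The corepressor ARID4B, at -0.36 (limma, adjusted p = 0.0510), also passed with quantile normalization (0.0351), with the lowest 60% left out (0.0437) and with robust eBayes (0.0405). It passed too where probe sets ending in _s_at or _x_at were avoided (0.0178), when 2 corepressors fell and 20.3% of all genes were called. With its probe sets averaged ARID4B was at -0.10. Without control replicate 3 the corepressors ARID4B and SMARCA4 fell, by 0.27 and 0.22, and 1 corepressor passed without control replicate 1.

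Among 17 factors known to act on cyclin D1 transcription 3 fell and 0 rose, beside 8.49% and 5.30% of all genes, with a median of -0.12. FOSL1, an AP-1 subunit, was at 7.67, 7.80 and 8.01 in control and 6.80, 6.87 and 6.91 in knockdown arrays, and fell by 0.97 ± 0.10 (limma, adjusted p = 0.00289). Its groups were 0.76 apart at the closest, and its call held with any 1 array left out. FOSB, another AP-1 subunit, fell by 0.90 ± 0.14 to a knockdown mean of 4.16, under the 4.68 of the low end, which leaves its size uncertain. STAT3 fell by 0.41 ± 0.09 (limma, adjusted p = 0.0328). The FOSB call was lost without knockdown replicate 1 or 2, and the STAT3 call without control replicate 2 or knockdown replicate 1, 2 or 3, without a trend (limma, adjusted p = 0.0530) and with the replicate block (0.0590). Among gankyrin's own partners, MDM2, the ubiquitin ligase of p53 that gankyrin binds, fell by 0.46 ± 0.09 (limma, adjusted p = 0.0231). It was at -0.10 with its probe sets averaged, and its call was lost without control replicate 2 or knockdown replicate 1, 2 or 3 and with the replicate block (0.0514). PSMC4, the proteasome ATPase that gankyrin binds, was at 9.70 ± 0.03 and 9.79 ± 0.04 (SD, n = 3 each; limma, adjusted p = 0.312).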

How the data were processed

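Biotin-labelled cRNA from 6 arrays, 3 per group, was measured. The authors deposited log2 signals, 1 per probe set and array, already scaled (array medians 4.20 to 4.25), a scale taken from their range of 1.29 to 13.68. MAS5 is named in the submitters' processing notes; the sources used here do not give its role or version. Genes came from the platform annotation, updated through Entrez identifiers. Of 54613 non-control probe sets, the lowest 40% by mean were left out. Groups were compared in 1 limma fit over the other 32773 probe sets (limma 3.58.1, R 4.3.3, intensity trend, two-sided, Benjamini-Hochberg adjustment over all, threshold 0.05), without further normalization, and the fit was run on simulated data. The simulated arrays had independent noise and none stood apart, so that run does not cover a deviation like that of control replicate 3. "Rose" and "fell" mean past the threshold of 0.05. The number of arrays limits the precision, and no detection calls were used. Named genes were all members, PSMD10 and NFIL3, up to 4 genes of smallest p per list and the 5 most like CCND1. The members, lists and tests were chosen with earlier results of these data known.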

Additional observations from a re-analysis of the deposited data

How the results depend on the processing

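Over all probe sets 3467 were called, 2153 with the replicate block and 716 to 7113 when 1 array was left out, the lowest without knockdown replicate 1 and the highest without control replicate 3. Member probe sets called numbered 4, 2 without an intensity trend and 1 to 5 with an array left out. Member genes called numbered 3, 1 without a trend and 1 to 3 with an array left out. CCND1 was called by its brighter probe set in every alternative, CDK6 in 8 of 16 and CCNE1 in 10 of 16. CCNE1 also missed the threshold without a filter (adjusted p = 0.0501) and without a trend (0.0578), and CDK6 without a trend (0.0644) and with the replicate block (0.0526). Same-numbered arrays correlated at 0.05, 0.20 and 0.11 in their deviations from the group means, and unlike-numbered arrays at -0.13 to 0.02. The labels do not say that the numbers pair the arrays, and these values do not settle it. The main fit had no pairing, and the replicate block is given as an alternative. With each gene's probe sets averaged, CDK6 turned to 0.05 (limma, adjusted p = 0.796), CCNE2 to 0.30 (0.408) and RBBP4 to -0.01 (0.954). The averages include control replicate 3 and were not run without it. That array was at -1.12 from the mean of the other controls on CDK6 235287_at and at -1.84 on CCNE2 211814_s_at. Avoiding probe sets ending in _s_at or _x_at turned TFDP2 to -0.18 (0.372) and RBBP4 to -0.16 (0.461). Centring each array turned RBL2 212331_at to -0.00 (0.985), and leaving out 1 array turned it (adjusted p over the arrays left out 0.866 to 0.970), RB1 203132_at (0.417 to 0.925), CDK6 243000_at (0.441 to 0.925), CDK6 235287_at (0.327 to 0.776) and LIN54 (0.337 to 0.919). None of these but CDK6 224847_at and TFDP2 had been called. List counts under the alternatives were computed after the data had been seen.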
